A study of Mus musculus with 12 samples.

Results

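The report covers 10 genes of insulin production and prohormone processing, taken by name from a list and found among the 52962 gene identifiers of the table: *Ins1*, *Ins2*, *Pcsk1*, *Pcsk2*, *Cpe*, *Scg5*, *Pcsk1n*, *Scg2*, *Scg3* and *Chgb*. All of them passed the filter on low counts and were tested among 15598 genes. RNA was sequenced from islet cells of female NOD mice, an inbred strain that develops autoimmune diabetes without any added transgene or treatment. The mice were 4 or 8 weeks old, and the methods describe islets kept overnight in culture, removal of CD45-positive leukocytes, and a sort of the rest into a β and a non-β fraction by autofluorescence, size and granularity. The 4 groups (β at 4 weeks, β at 8 weeks, non-β at 4 weeks, non-β at 8 weeks) had 3 replicates each, which the methods describe as pools of mice, and no group lacked the NOD background. P-values therefore measure the spread between pools.

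Mouse islets carry 2 insulin genes. Their product, preproinsulin, enters the endoplasmic reticulum, is folded there, and is packed with other cargo into dense-core granules. In the granules the convertases encoded by *Pcsk1* and *Pcsk2* cut prohormones at pairs of basic residues, and the carboxypeptidase encoded by *Cpe* trims the basic residues left behind. α-cells use chiefly the *Pcsk2* product, which releases glucagon from proglucagon. *Scg5* encodes a chaperone that the *Pcsk2* product needs, *Pcsk1n* encodes an inhibitor of the *Pcsk1* product, and *Scg2*, *Scg3* and *Chgb* encode granins, acidic proteins that help form the granule core.

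The 2 insulin mRNAs are close copies, so how reads were divided between them bears on every insulin value. Over their coding sequences (GENCODE M21, GRCm38) they matched at 302 of 327 aligned bases, or 92.4%, with 25 mismatches and 6 gap bases. The first 180 coding bases are shown because they hold 15 of these mismatches, which are in capitals.
Ins1: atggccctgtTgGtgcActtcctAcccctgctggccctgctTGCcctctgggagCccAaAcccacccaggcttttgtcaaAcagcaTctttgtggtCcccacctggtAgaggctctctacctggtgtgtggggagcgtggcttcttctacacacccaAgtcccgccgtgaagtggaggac
Ins2: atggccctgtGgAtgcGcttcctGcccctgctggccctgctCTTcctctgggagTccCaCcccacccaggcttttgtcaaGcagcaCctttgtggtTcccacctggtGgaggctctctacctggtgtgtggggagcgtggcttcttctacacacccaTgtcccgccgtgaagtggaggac
The longest run without a difference was 56 bases, from coding base 271 to 326 of *Ins1* and 277 to 332 of *Ins2*, a run that covers most of the A chain.
Identical run: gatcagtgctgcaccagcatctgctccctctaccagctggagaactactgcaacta

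Of the 31-base windows of the *Ins1* mRNA, the default word length of kallisto, 47 of 1032 (4.6%) also stood in an *Ins2* transcript. The same 47 windows were 10.5% of the 448 in *Ins2*. No 100-base window was shared. Estimated counts of the 2 genes were fractional in each library, but their sum was a whole number in all 12 (tolerance 1e-4), so the fractions of reads were divided only between *Ins1* and *Ins2*. The sum is thus free of that division, and the share of *Ins1* within it is an estimate.

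*Ins1* lies on chromosome 19 at 52264297 to 52265476 on the plus strand. *Ins2* lies on chromosome 7, minus strand, where its annotated interval from 142678656 to 142743381 is long because it includes 9 transcripts, some reaching far past the insulin exons. *Pcsk1* (chromosome 13, 75089826 to 75134861) and *Pcsk2* (chromosome 2, 143546156 to 143816285) are on the plus strand, and *Cpe* (chromosome 8, 64592542 to 64693054) and *Scg5* (chromosome 2, 113776362 to 113829121) on the minus strand. *Pcsk1n* (chromosome X, 7919822 to 7924410, plus), *Scg2* (chromosome 1, 79434669 to 79440120, minus), *Scg3* (chromosome 9, 75643189 to 75684056, minus) and *Chgb* (chromosome 2, 132781278 to 132795079, plus) complete the set. *Pcsk2*, *Pcsk1n* and *Scg3* overlap genes of the opposite strand. The kit keeps strand, and whether the counting used it was not tested.

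Libraries held 13755106 to 27040652 estimated counts. Levels are given as CPM, the counts of a library put on a shared TMM scale. The sort was checked against marker lists. The 10 β-cell markers, among them *Ins1* and *Ins2*, summed to between 46800 and 113000 CPM in β libraries and 3030 to 5990 in non-β libraries. With both insulin genes left out the sums were 15500 to 24100 CPM in β libraries and 2480 to 3540 in non-β libraries. The 7 α-cell markers, led by *Gcg*, summed to between 107000 and 136000 CPM in non-β libraries. In β libraries the α-cell sum was 5850 to 9620 CPM at 4 weeks and 1750 to 2800 at 8 weeks. Several lists of other cell types moved with age. Acinar markers summed to 99.7 to 211 CPM in β libraries at 4 weeks and 468 to 990 at 8 weeks, and to 34.2 to 94.0 and 213 to 804 CPM in non-β libraries. In non-β libraries endothelial markers went from between 49.6 and 91.9 CPM to between 394 and 1090, mesenchymal markers from between 102 and 289 to between 646 and 999, and δ-cell markers from between 5300 and 8010 to between 8190 and 11700. The part of these cells in the age differences was not tested. *Ptprc*, which encodes CD45, was at 0 in all β libraries at 8 weeks and at most 0.788 CPM elsewhere. On the third principal component the 4-week β libraries numbered 1, 2 and 3 stood at 6.7, 5.9 and 62.9, number 3 lying apart. The 4-week non-β libraries stood at -17.5, -56.4 and 32.7, where number 3 was highest but numbers 1 and 2 were also far apart. In bulk samples, fewer cells of a type and less RNA per cell cannot be told apart.

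Ordered by CPM per kilobase of the principal annotated transcript, the levels in β libraries ran from *Ins2* and *Ins1* through *Scg2*, *Cpe*, *Scg5*, *Chgb*, *Pcsk2*, *Scg3* and *Pcsk1n* down to *Pcsk1*, in the same order at both ages. At 4 weeks these per-length levels were 69000 ± 23100 for *Ins2*, 8150 ± 2890 for *Ins1*, 1600 ± 154 for *Scg2*, 1580 ± 233 for *Cpe* and 35.2 ± 1.58 for *Pcsk1* (mean ± SD, n = 3). The means ± SD of *Scg2* and *Cpe* overlapped at 4 weeks, as did those of *Chgb* (635 ± 107) and *Pcsk2* (516 ± 31.0), whereas at 8 weeks no neighbours in the order overlapped. The distance between the insulin genes depends on transcript lengths of 478 bases for *Ins2* and 1062 for *Ins1*, although their coding lengths are 333 and 327 bases. In non-β libraries at 4 weeks *Scg5* (1630 ± 213 CPM per kilobase), *Cpe* (1490 ± 129), *Pcsk2* (1480 ± 134) and *Ins2* (1190 ± 291) led with overlapping SDs. *Scg2* (983 ± 60.1) and *Pcsk1n* (908 ± 93.2) also overlapped *Ins2*. *Ins1* stood at 191 ± 49.7, and *Pcsk1* was again lowest at 2.29 ± 0.268. The non-β order was not the same at 8 weeks, when *Ins2* was first at 3320 ± 333 and *Scg5* next at 1580 ± 184.

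**Figure D1:**
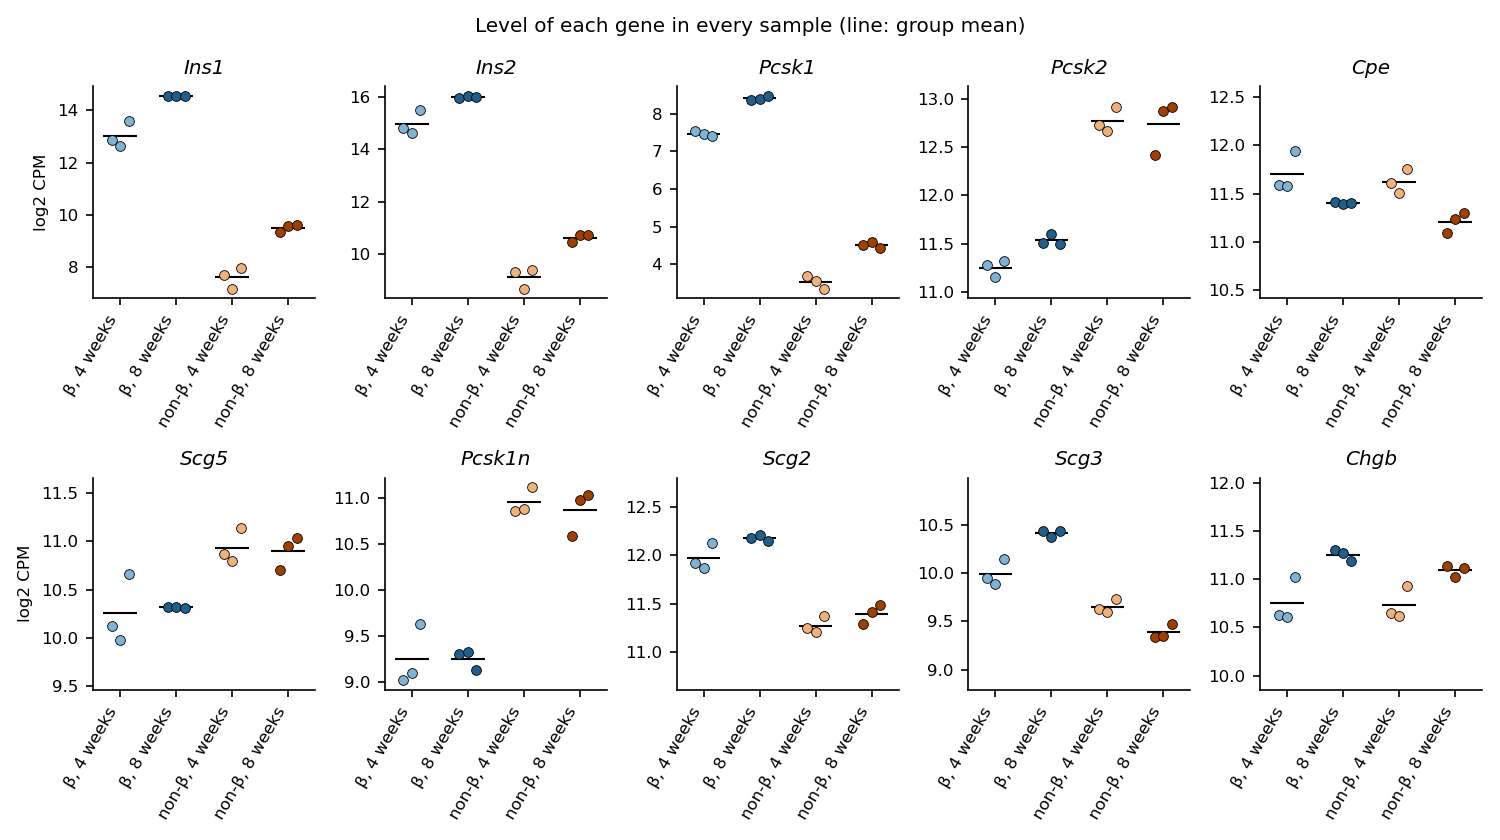
Level of each of the 10 genes in all 12 libraries as log2 CPM (y axis, scaled per gene) for the 4 groups (x axis). Points are libraries and lines are group means. *Ins1*, *Ins2*, *Pcsk1* and *Chgb* stand higher at 8 than at 4 weeks in both fractions without overlap, and *Cpe* stands lower in both. *Pcsk2*, *Scg5* and *Pcsk1n* stand higher in non-β libraries.

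With age, insulin and *Pcsk1* transcripts rose in the β fraction. Those of *Pcsk2* and its chaperone did not pass the main test, but passed as higher with sample quality weights. Between 4 and 8 weeks 5 of the 10 genes rose in the β fraction (*Ins1*, *Ins2*, *Pcsk1*, *Scg3* and *Chgb*) and 0 fell, beside 8.59% of all tested genes that were higher and 9.35% that were lower (limma-voom, adjusted p under 0.05). The median log2 difference of the 10 genes was 0.36, and that of all tested genes 0.02. At an unadjusted p under 0.05 there were 6 higher and 1 lower (*Cpe*). The share of all tested genes at that looser threshold was not counted, so the shares above do not serve as its background. DESeq2 also called *Cpe* lower whereas edgeR called 0 lower. Without the 4-week libraries numbered 3, 7 rose and 0 fell, *Scg2* and *Scg5* being added. Without β replicate 1 or 2 at 4 weeks 3 rose and 0 fell, and with sample quality weights 8 rose and 1 fell. Those weights called more genes throughout, with 2594 of all genes higher and 2788 lower, against 1340 and 1459 in the main fit.

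*Ins1* had 7430, 6390 and 12200 CPM in the β fraction at 4 weeks and 23500, 24000 and 23800 CPM at 8 weeks. The ages did not overlap, and replicate 3 was the highest at 4 weeks. The log2 difference was 1.51 (SE 0.23, adjusted p 0.000681, limma), a fold of 2.85. *Ins2* had 28400, 25000 and 45600 CPM at 4 weeks and 63100, 67300 and 64200 at 8 weeks, again with replicate 3 highest at 4 weeks and no overlap. Its log2 difference was 1.03 (SE 0.22, adjusted p 0.00688, limma), a fold of 2.04. Each stayed past the threshold in every alternative fit run, at log2 differences of 1.14 to 1.79 for *Ins1* (1.14 being the value with the 2 genes summed) and 0.83 to 1.28 for *Ins2*.

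*Pcsk1*, whose product makes the first main cut in proinsulin, had 186, 176 and 170 CPM in the β fraction at 4 weeks and 328, 336 and 357 at 8 weeks. Replicate 3 at 4 weeks did not stand high for this gene, unlike for insulin. The log2 difference was 0.94 (SE 0.09, adjusted p 2.15e-05, limma), a fold of 1.92. *Pcsk2* had 2490, 2270 and 2550 CPM at 4 weeks and 2910, 3100 and 2880 at 8 weeks, which did not overlap. Yet its log2 difference of 0.28 (95% interval by normal approximation 0.03 to 0.53) had an adjusted p of 0.152 in limma. With sample quality weights in limma the *Pcsk2* difference was 0.30 and past the threshold (adjusted p 0.00677). *Cpe* had 3090, 3050 and 3920 CPM at 4 weeks and 2720, 2680 and 2700 at 8 weeks. All 8-week values lay below the 4-week ones, and the difference of -0.30 (95% interval -0.53 to -0.08) had an adjusted p of 0.0894.

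The convertase partners showed no call in the β fraction in the main fit. *Scg5* had 1110, 1010 and 1620 CPM at 4 weeks and 1280, 1270 and 1270 at 8 weeks, and *Pcsk1n* had 517, 547 and 791 CPM and then 630, 641 and 559. For both, replicate 3 at 4 weeks was higher than all other β libraries. Their log2 differences were 0.06 (95% interval -0.25 to 0.38) and 0.00 (95% interval -0.31 to 0.32). Without the 4-week libraries numbered 3 the *Scg5* difference was 0.27 and past the threshold (adjusted p 0.049), and with sample quality weights it was 0.22 (adjusted p 0.0398).

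Among the granins, *Chgb* and *Scg3* rose in the β fraction. *Chgb* had 1580, 1560 and 2080 CPM at 4 weeks and 2520, 2460 and 2330 at 8 weeks, a log2 difference of 0.50 (SE 0.12, adjusted p 0.0151, limma). *Scg3* had 988, 949 and 1130 CPM and then 1390, 1330 and 1390, a log2 difference of 0.43 (SE 0.10, adjusted p 0.00807, limma). Neither overlapped between ages. The *Chgb* call was lost without replicate 1 or 2 of either age, and the *Scg3* call without replicate 1 or 2 at 4 weeks or replicate 3 at 8 weeks (adjusted p up to 0.0917 and 0.061). *Scg2*, with 3870, 3740 and 4460 CPM at 4 weeks and 4640, 4750 and 4550 at 8 weeks, did not overlap either, and its difference of 0.21 had an adjusted p of 0.172, or 0.0012 at the lowest among the alternative fits.

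In the non-β fraction the same 3 genes led the age change. Of the 10 genes 3 rose (*Ins1*, *Ins2* and *Pcsk1*) and 1 fell (*Cpe*), beside 11.6% of tested genes higher and 4.8% lower. *Ins1* had 212, 146 and 250 CPM at 4 weeks and 658, 759 and 788 at 8 weeks, and *Ins2* had 629, 409 and 667 CPM and then 1400, 1690 and 1670. Ages did not overlap for either gene, and the log2 differences were 1.89 (SE 0.21) and 1.51 (SE 0.21), with adjusted p-values of 5.14e-05 and 0.000222 in limma. *Pcsk1* had 12.9, 11.6 and 10.2 CPM and then 22.9, 24.3 and 21.6, a log2 difference of 0.98 (SE 0.14, adjusted p 0.000251, limma). Beside these values, the summed β-cell marker list, which includes both insulin genes, stood at 3030 to 4120 CPM in non-β libraries at 4 weeks and 5100 to 5990 at 8 weeks. With both insulin genes left out the sum was 2480 to 3200 and 3040 to 3540 CPM, overlapping and made up chiefly of *Iapp*. The other listed genes did not all move one way in non-β libraries. *Nkx6-1* went from between 73.8 and 86.6 CPM to between 36.8 and 45.4, *Ucn3* from between 4.2 and 5.46 to between 2.61 and 4.21, and *Pdx1* from between 29.2 and 32 to between 26.6 and 34.7, whereas *G6pc2* went from between 31.1 and 32.7 to between 47.7 and 55.9 and *Mafa* from between 7.13 and 9.40 to between 10.1 and 12.6. The part of β-cells in the non-β fraction in these changes was not tested.

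*Cpe* had 3130, 2910 and 3450 CPM in the non-β fraction at 4 weeks and 2180, 2410 and 2530 at 8 weeks, without overlap, and fell by 0.41 on the log2 scale (SE 0.11, adjusted p 0.0245, limma). The call was lost without replicate 1 or 3 at 4 weeks or replicate 1 or 2 at 8 weeks. *Pcsk2* had 6770, 6510 and 7710 CPM and then 5470, 7510 and 7700, overlapping widely, as did *Scg5* (1780 to 2260 and 1670 to 2100 CPM) and *Pcsk1n* (1860 to 2230 and 1540 to 2100). The log2 differences of these 3 genes lay between -0.08 and -0.03. *Chgb* went from between 1570 and 1950 CPM to between 2080 and 2260 without overlap (log2 difference 0.36, adjusted p 0.0672, limma). *Scg2* went from between 2350 and 2640 CPM to between 2510 and 2860 (0.13, adjusted p 0.454, limma). *Scg3* went from between 774 and 850 CPM to between 649 and 712, also without overlap (-0.26, adjusted p 0.0765, limma). Some alternative fits called *Chgb* higher, such as DESeq2 (adjusted p 0.0276) and limma with quality weights (adjusted p 0.0018). Some called *Scg3* lower, such as DESeq2 (adjusted p 0.0356) and limma with quality weights (adjusted p 0.016). The remaining fits called neither change.

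**Figure D2:**
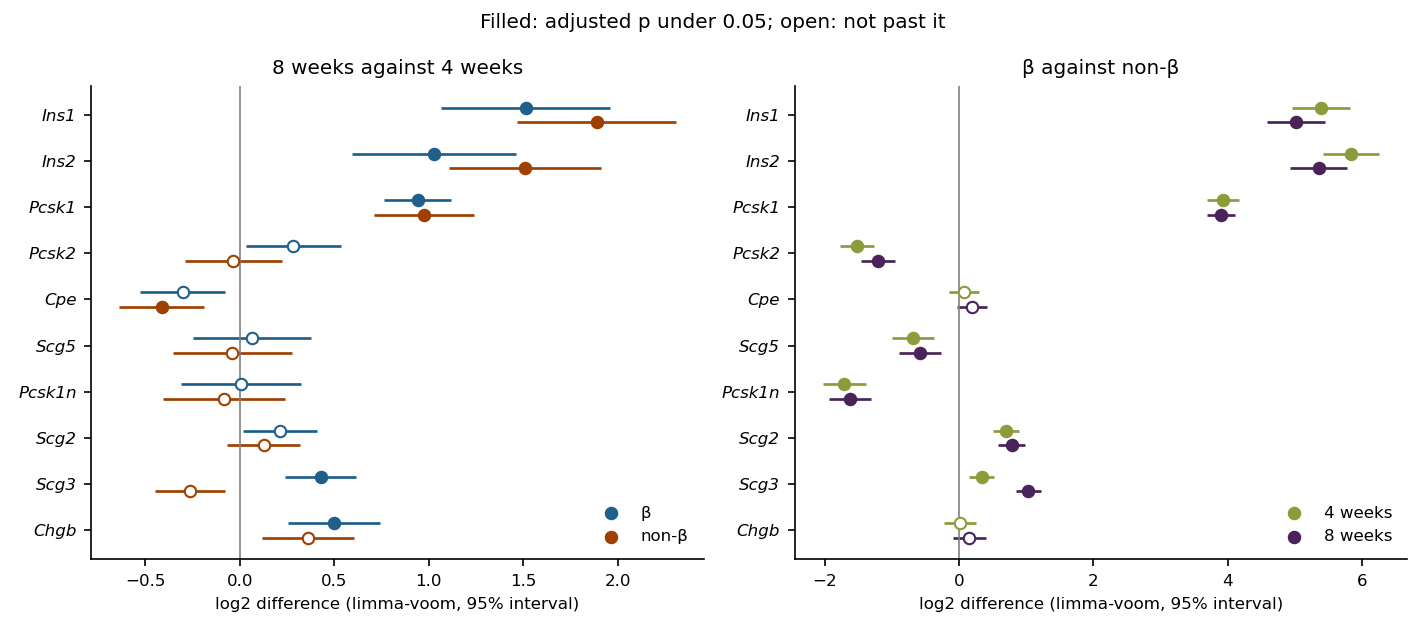
Log2 differences of the 10 genes (x axis) with 95% intervals, for 8 against 4 weeks in each fraction (left) and β against non-β at each age (right). Filled points passed an adjusted p of 0.05 and open points did not. *Scg3* lies at 0.43 in the β fraction and -0.26 in the non-β fraction.

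The age changes of the fractions differed for 1 of the 10 genes. In the interaction (the age difference of the β fraction less that of the non-β fraction) *Scg3* was at 0.69 (SE 0.13, adjusted p 0.00939, limma) and no other member passed, beside 1.8% of tested genes higher and 3.33% lower. The call held in each alternative fit, at 0.63 to 0.76. For *Scg3* every 8-week β library lay above the 4-week ones, and every 8-week non-β library below. For *Pcsk1* the interaction was -0.04 (95% interval -0.35 to 0.28), for *Ins1* -0.37 (-0.99 to 0.24) and for *Ins2* -0.48 (-1.07 to 0.11). In a fit with replicate numbers as blocks, the *Ins2* interaction was past the threshold at -0.48 (adjusted p 0.0347, limma). That fit called more genes throughout, with 796 of all genes higher and 1083 lower, against 280 and 520 in the main fit. At 4 weeks same-numbered libraries deviated together, and at 8 weeks they did not.

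Between the fractions, the 10 genes divided in the same way at both ages. In each comparison 5 were higher in the β fraction (*Ins1*, *Ins2*, *Pcsk1*, *Scg2* and *Scg3*) and 3 lower (*Pcsk2*, *Scg5* and *Pcsk1n*), while *Cpe* and *Chgb* did not pass. At 4 weeks 24.9% of all tested genes were higher and 23.7% lower in the β fraction, and at 8 weeks 23.6% and 25.6%. Insulin is the basis on which β-cells are recognised, so its enrichment checks the sort. *Ins1* was higher by 5.39 at 4 weeks and 5.02 at 8 weeks on the log2 scale, and *Ins2* by 5.84 and 5.36.

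*Pcsk1* was higher in the β fraction by 3.93 (SE 0.12) and 3.90 (SE 0.11) on the log2 scale, folds of 15.3 and 14.9, with adjusted p-values of 2.43e-10 and 6.23e-11 in limma. *Pcsk2* was lower in the β fraction by log2 differences of -1.52 (SE 0.13) and -1.20 (SE 0.13), with 6510 to 7710 CPM in the non-β fraction against 2270 to 2550 in the β fraction at 4 weeks. Its chaperone *Scg5* was also lower in the β fraction, at -0.68 (SE 0.16) and -0.58 (SE 0.16), with adjusted p-values of 0.00363 and 0.00886 in limma. *Pcsk1n* was lower at -1.71 and -1.62 (SE 0.16 each), although the convertase its product inhibits was higher there. No β library reached the lowest non-β library of the same age for any of these 3 genes.

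*Scg2* was higher in the β fraction by 0.70 at 4 weeks and 0.78 at 8 weeks (SE 0.10 each), and *Scg3* by 0.34 and 1.03 (SE 0.09 each), with adjusted p-values of 0.00955 and 1.6e-06 for *Scg3* in limma. The 4-week *Scg3* call was lost when only the 2 groups compared were fitted (adjusted p 0.0635). *Cpe* differed by 0.08 (95% interval -0.15 to 0.30) and 0.19 (-0.04 to 0.41), and *Chgb* by 0.02 (-0.23 to 0.26) and 0.16 (-0.09 to 0.40). At 8 weeks *Cpe* and *Chgb* passed when the 4-week libraries numbered 3 were left out, making 7 higher and 3 lower.

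**Figure D3:**
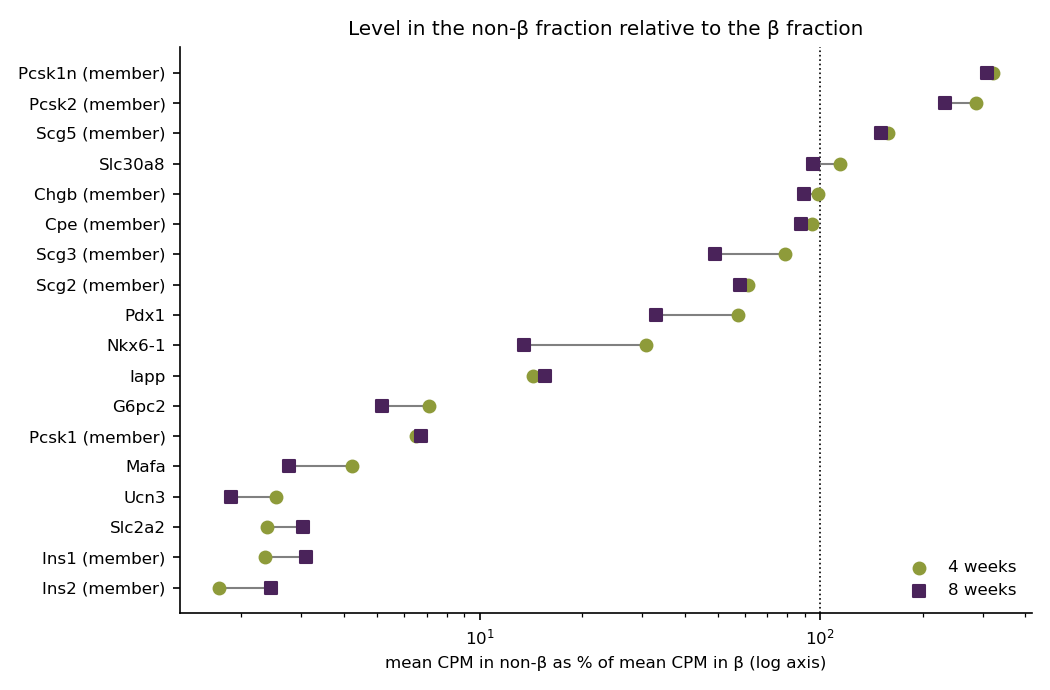
Mean CPM in non-β libraries as a percent of mean CPM in β libraries at the same age (x axis, log scale) for the 10 genes and the other β-cell markers, with circles for 4 weeks and squares for 8 weeks. *Ins2* lies at 1.72% and 2.45%, *Pcsk1* at 6.52% and 6.74%, and *Pcsk1n* at 322% and 309%.

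The level in the non-β fraction, as a percent of that in the β fraction at the same age, was 1.72% and 2.45% for *Ins2*, 2.34% and 3.09% for *Ins1*, and 6.52% and 6.74% for *Pcsk1* at 4 and 8 weeks. The other 8 genes on the β-cell list spanned a wide range. They gave 2.38% and 3.03% for *Slc2a2*, a glucose transporter, 2.52% and 1.86% for *Ucn3*, a hormone of mature β-cells, 4.21% and 2.76% for *Mafa*, and 7.11% and 5.19% for *G6pc2*. Higher values were found for *Iapp* (14.4% and 15.6%), *Nkx6-1* (30.8% and 13.5%), *Pdx1* (57.2% and 32.9%) and the zinc transporter gene *Slc30a8* (114% and 95.2%). *Pcsk1* stood at a higher percentage than both insulin genes at each age and below these 4. No test was made of these percentages.

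Ratios within a library do not depend on scaling between libraries. *Ins1* made up 20.8%, 20.4% and 21.1% of summed *Ins1* and *Ins2* counts in the β fraction at 4 weeks and 27.2%, 26.2% and 27.1% at 8 weeks. In the non-β fraction the shares were 25.2%, 26.3% and 27.3% at 4 weeks and 31.9%, 31.0% and 32.1% at 8 weeks. Ages did not overlap in either fraction, and at each age non-β libraries were all above β libraries. Replicate 3 of the β libraries at 4 weeks, which was highest for both genes, had a share close to the other two.

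The *Ins1* share was lower in the β fraction by 5.19 percentage points over both ages (mean difference -5.19, exact permutation within age, two-sided p = 0.005, adjusted p 0.015 over 15 ratio tests). That p is the smallest these arrangements can give. The arrangements ignore the pairing of same-numbered libraries, and with pairs kept and their signs flipped the adjusted p was 0.0938, the smallest the flips allow, so that the call was lost. The share was higher at 8 weeks by 6.10 points in the β fraction and by 5.39 in the non-β fraction. With 3 libraries against 3 the exact test cannot go below p = 0.1, which it gave for both (adjusted p 0.107). Summed *Ins1* and *Ins2* made up 3.29% to 5.58% of all counts in the β fraction at 4 weeks and 8.68% to 8.96% at 8 weeks, and 0.0564% to 0.0917% and 0.208% to 0.238% in the non-β fraction.

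The log2 ratio of *Pcsk1* to *Pcsk2* counts, used here only between groups since it is not corrected for length, was -3.74, -3.69 and -3.91 in the β fraction at 4 weeks and -3.15, -3.21 and -3.01 at 8 weeks. In the non-β fraction it was -9.04, -9.13 and -9.57 and then -7.90, -8.27 and -8.48. It was higher in the β fraction by 5.28 over both ages (exact permutation within age, p = 0.005, adjusted p 0.015, or 0.0938 with pairs kept), and higher at 8 weeks by 0.66 in the β fraction and 1.03 in the non-β fraction without overlap (exact p = 0.1 each, the smallest possible).

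The log2 ratio of *Pcsk1n* to *Pcsk1* ran the other way. It was 1.47, 1.64 and 2.22 in the β fraction at 4 weeks and 0.94, 0.93 and 0.64 at 8 weeks, and in the non-β fraction between 7.18 and 7.78 and then between 6.08 and 6.60. It was lower in the β fraction by a mean difference of -5.58 (exact permutation within age, p = 0.005, adjusted p 0.015, or 0.0938 with pairs kept). The ratio of the chaperone gene *Scg5* to *Pcsk2* was higher in the β fraction by 0.73 on the log2 scale (the same p-values in both tests). It was -1.16, -1.17 and -0.66 in the β fraction at 4 weeks, where replicate 3 was far above the others, and -1.19, -1.28 and -1.19 at 8 weeks.

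**Figure D4:**
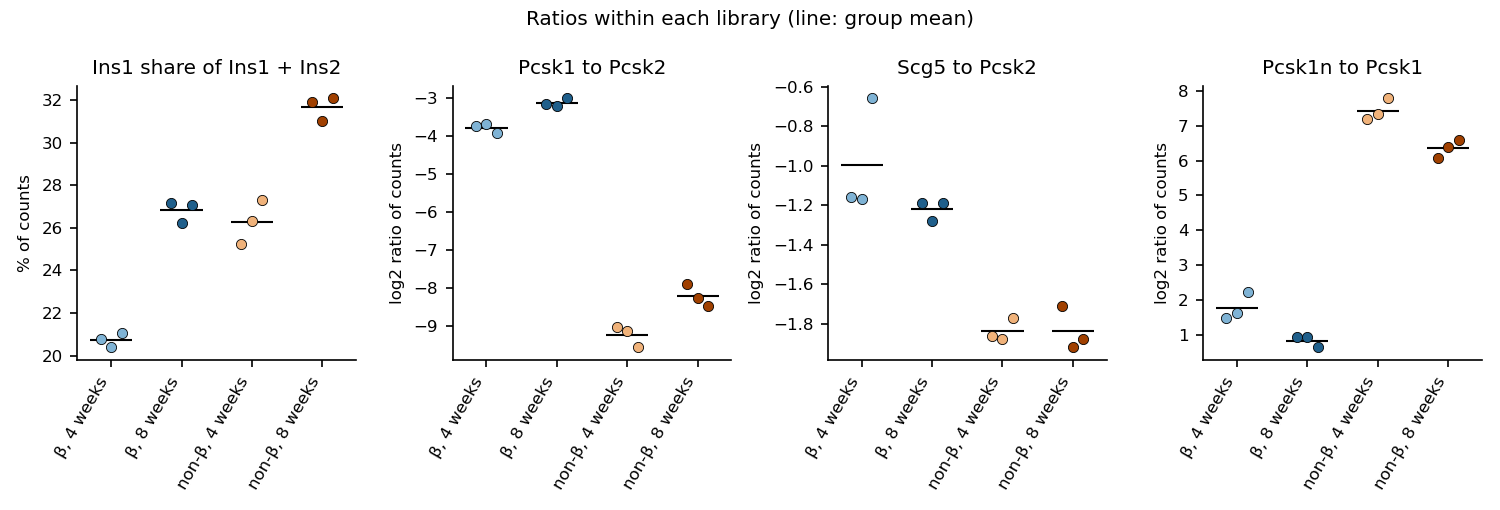
Share of *Ins1* in summed insulin counts (percent) and 3 log2 ratios of counts in each library (points) with group means (lines), by group. The *Ins1* share lies at 20.4% to 21.1% in the β fraction at 4 weeks and 31.0% to 32.1% in the non-β fraction at 8 weeks.

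Promoter sequences were available in the RefSeq table (GRCm38.p6) for 8 of the 10 genes, *Ins2* and *Cpe* not being among them. The cyclic AMP response element TGACGTCA stood in those of *Pcsk1*, *Scg2* and *Chgb*, each upstream of the start at -78 to -71, -68 to -61 and -72 to -65. It is a palindrome and was found in 1.5% of all 32851 upstream windows of 250 bases. The 30-base stretches around it are shown because 3 of the 8 genes hold it at nearly the same distance, with the element in capitals. The *Pcsk1* stretch is chr13:75089768-75089797, the *Scg2* stretch chr1:79440076-79440105 on the minus strand, and the *Chgb* stretch chr2:132781559-132781588. Those of *Scg2* and *Chgb* lie inside the GENCODE gene intervals.
Pcsk1: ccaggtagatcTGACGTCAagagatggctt
Scg2: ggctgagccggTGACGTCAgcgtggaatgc
Chgb: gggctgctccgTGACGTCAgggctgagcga
In the β fraction *Pcsk1* and *Chgb* rose with age and *Scg2* did not pass. The half-site TGACG, searched on both strands and overlapping the full element, was in the windows of *Pcsk1*, *Pcsk2*, *Scg5*, *Scg2*, *Scg3* and *Chgb*, and in 17.8% of all windows. The E-box CATCTG (both strands, 14.4% of windows) was found once, in *Ins1* at -84 to -79 (chr19:52264201-52264230, in capitals).
Ins1: ggttcatcaggcCATCTGgtcccttattaa
The homeodomain core CTAATG (6.4% of windows) and TATAAA (7.6%) were in none of the 8. A match is a description of letters in these windows and no evidence of binding.

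The genes that surround the members in the pathway were read from lists. The counts of every list below at an adjusted p under 0.05 stand beside these shares of all tested genes. For the few list counts at an unadjusted p, no such share was counted. For age, 8.59% were higher and 9.35% lower in the β fraction, and 11.6% and 4.8% in the non-β fraction. In β against non-β, 24.9% were higher and 23.7% lower at 4 weeks, and 23.6% and 25.6% at 8 weeks. Of 16 tested genes for other prohormone processing enzymes, 3 rose and 1 fell with age in the β fraction, and 3 rose and 2 fell in the non-β fraction. *Pam*, which amidates peptide hormones, had 819 ± 19.5 CPM in the β fraction at 4 weeks and 1540 ± 71.8 at 8 weeks (log2 difference 0.91, adjusted p 3.65e-05, limma), and 2030 ± 80.4 and 1910 ± 178 in the non-β fraction, with an interaction of 1.00 (adjusted p 0.000799). *Cpm*, a membrane carboxypeptidase, rose by 0.89 in the β fraction and 1.66 in the non-β fraction on the log2 scale, and *Qpct*, a glutaminyl cyclase, fell by 0.45 and 1.20. *Pcsk6*, another convertase, fell by 0.56 in the non-β fraction, from 71.2 ± 0.786 to 48.8 ± 5.32 CPM. Between fractions 7 of the 16 were higher and 6 lower in the β fraction at 4 weeks, and 5 higher and 5 lower at 8 weeks. *Qpct* was higher in the β fraction at 8 weeks by 1.90 and *Ctsb*, encoding cathepsin B, at 4 weeks by 1.28. *Pam* was lower in the β fraction at 4 weeks with a log2 difference of -1.31, as was the convertase gene *Pcsk7* (-0.73 and -0.71 at 4 and 8 weeks), and *Furin*, encoding another convertase, at 8 weeks (-0.80).

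Of 13 tested genes for other granins and granule cargo, 1 rose and 1 fell in the β fraction with age, and 1 rose and 1 fell in the non-β fraction. *Ptprn*, a granule membrane protein and autoantigen of type 1 diabetes, rose by 0.60 in the β fraction (1010 ± 44.5 to 1540 ± 61.9 CPM, adjusted p 0.000859, limma). *Vgf*, a granin-like peptide precursor, fell by 0.95 in the non-β fraction (1010 ± 81.5 to 530 ± 99.1 CPM) while β-cells had 420 ± 52.5 and 425 ± 21.6 CPM. *Ttr* fell by 1.25 in the β fraction, from 240 ± 82.2 to 97.8 ± 9.23 CPM. *Ttr* is also on the α-cell list, whose sum in β libraries was lower at 8 weeks as given above, and the part of α-cells in it was not tested. *Iapp*, the amyloid peptide stored with insulin, was higher in the β fraction by 2.77 and 2.69, and *Resp18* lower at -1.76 and -1.57.

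Of 26 genes for entry into and folding in the endoplasmic reticulum, 3 rose and 1 fell with age in the β fraction, and 12 were higher and 2 lower in β than in the non-β fraction at 4 weeks, with 16 higher and 1 lower at 8 weeks. *Ero1l*, an oxidase for disulfide bonds, rose by 1.06 in the β fraction (249 ± 6.93 to 522 ± 64.3 CPM) and by 0.98 in the non-β fraction (63.7 ± 8.62 to 126 ± 21.9 CPM). *Ero1lb*, its islet paralogue, was higher in the β fraction by 2.33 and 2.77. *Hspa5*, encoding the chaperone BiP, fell by 0.44 in the β fraction (2850 ± 472 to 2080 ± 47.8 CPM, adjusted p 0.0209, limma), and the call was lost without replicate 1 or 2 at 8 weeks. The list median for age in the β fraction was 0.01, beside 0.02 for all tested genes.

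Of 18 granule biogenesis genes, 1 rose (*Syt7*) and 2 fell (*Ica1* and *Arfip1*) with age in the β fraction, each by less than 0.5 on the log2 scale, and each call was lost in several alternative fits. Between fractions 9 were higher and 2 lower in the β fraction at 4 weeks and 9 higher and 0 lower at 8 weeks in limma (11 and 1 at an unadjusted p under 0.05). *Sytl4*, encoding granuphilin of the insulin granule, stood furthest apart, with 326 ± 34.9 CPM in the β fraction and 7.42 ± 2.71 in the non-β fraction at 4 weeks (log2 difference 5.49, adjusted p 8.21e-10, limma).

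Of 12 transcription factor genes for insulin, 5 rose with age in the β fraction (*Mafa*, *Pax6*, *Isl1*, *Pdx1* and *Neurod1*) and 1 fell (*Nkx2-2*). In the non-β fraction 0 rose and 4 fell in limma (1 and 5 at an unadjusted p under 0.05). In β against non-β, 5 were higher and 7 lower at 4 weeks, and 4 higher and 5 lower at 8 weeks. *Mafa* was higher in the β fraction at 4.56 and 5.19 and *Nkx6-1* at 1.7 and 2.91. *Isl1* was lower there at -1.83 and -1.11 and *Foxa2* at -1.06 and -0.92. *Mafa* had 188 ± 13.8 CPM in the β fraction at 4 weeks and 420 ± 32.7 at 8 weeks (log2 difference 1.16, adjusted p 1.16e-05, limma), and *Pax6* 179 ± 18.7 and 326 ± 11.5 (0.87). *Nkx6-1* had 264 ± 18.6 and 299 ± 22.1 CPM in the β fraction, and fell by 1.03 in the non-β fraction from 81.4 ± 6.69 to 40.3 ± 4.57 CPM. Its interaction was 1.21 and that of *Neurod1* 1.19 (adjusted p 0.000679 and 0.00237, limma), and *Isl1*, *Pax6* and *Pdx1* also passed, so that 5 of the 12 were past the threshold toward the β fraction. *Pdx1*, *Isl1* and *Neurod1* among the risers, and the last 3 here, were named after their values were seen.

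**Figure D5:**
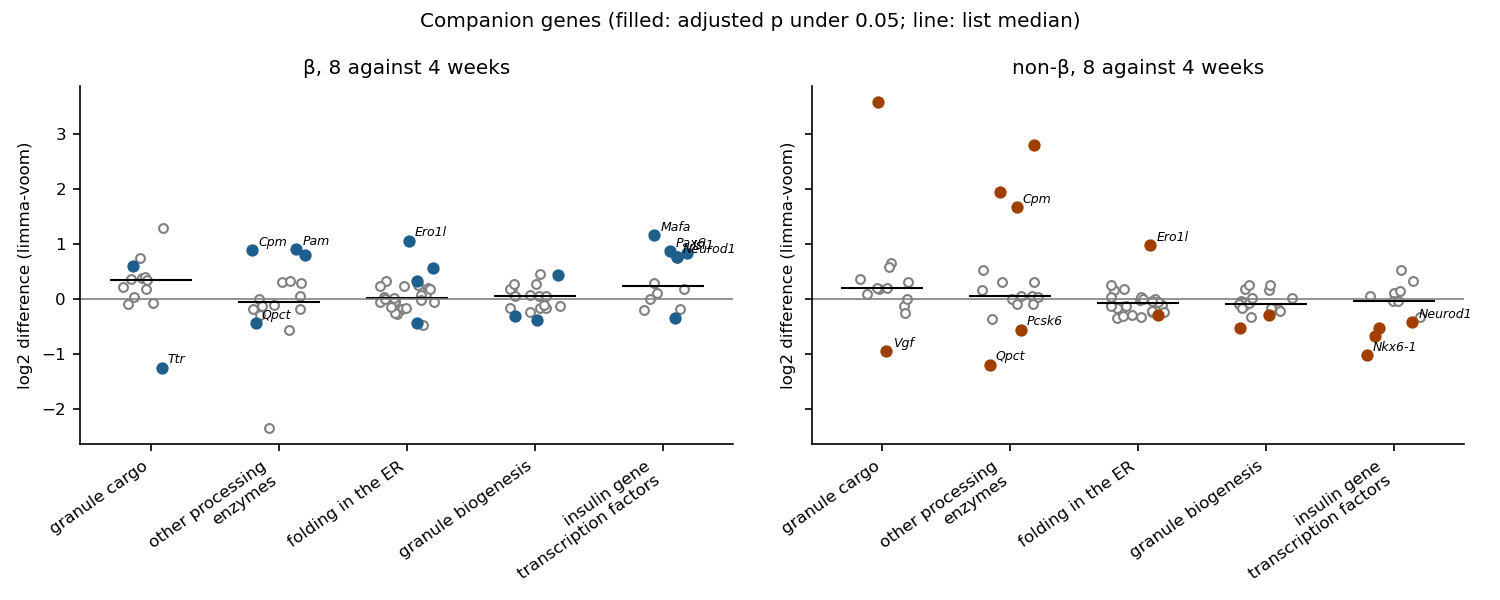
Log2 difference between 8 and 4 weeks (y axis) of each tested gene on the 5 lists (x axis), in the β fraction (left) and non-β-cells (right). Filled points passed an adjusted p of 0.05, open points did not, and lines are list medians. In the β fraction *Ttr* lies lowest among called genes at -1.25, and *Pam* lies at 0.91 and *Mafa* at 1.16.

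The genes most like the members in pattern were found by Pearson correlation of log2 CPM over the 12 libraries among 10161 genes, as a description. The libraries share a sort and fall into 4 groups, so the values follow chiefly the differences between groups. *Ins1* was followed by *Kcnip1* (r 0.996), *Gsdma*, *Hfe*, *Cd68* and *Sult1c2*, and *Pcsk1* by *Slc2a2* (r 0.996), *G6pc2*, *Mafa*, *Insrr* and *Maob*. *Pcsk2* was followed by *Aplp1* (r 0.991), *Ier2*, *Rflna*, *Gprin1* and *Pamr1*, and *Cpe* by *Pdia5* (r 0.967), *Rnf130*, *AI413582*, *Otulin* and *Pfdn2*. *Cd68* is on the leukocyte list, of which *Ptprc* is given above. It had 47.5 to 50.1 CPM in the β fraction at 4 weeks and 63.9 to 74.0 at 8 weeks, against 7.67 to 18.9 in the non-β fraction.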

How the data were processed

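RNA-seq libraries of sorted islet cells (12 samples, 4 groups of 3) were grouped by their labels. The authors trimmed single-end reads with fastp and assigned them to Ensembl mouse transcripts (GRCm38) with kallisto, summed them to genes with tximport, and deposited estimated counts per gene, unscaled and unfiltered. Versions of these programs are not given in the sources used here. Here the estimated counts were rounded, genes with CPM above 1 in at least 3 samples were kept (15598), libraries were scaled by TMM (edgeR 4.0.16), and differences were tested two-sided by limma-voom in 1 model of all samples (R 4.3.3, limma 3.58.1), with Benjamini-Hochberg adjustment across the tested genes and a threshold of 0.05. Intervals called 95% are the estimate plus or minus 1.96 SE, a normal approximation that is narrower than the moderated t behind the p-values. Such an interval can exclude no difference where the unadjusted p is above 0.05. A prior count of 2 was added for log2 CPM. The model was tested on simulated data. Ratios were tested by exact permutation, with age changes permuted within a fraction. DESeq2 1.42.0 and edgeR's quasi-likelihood test were among the alternatives.

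Members, lists and tests were chosen with earlier results of these data known, and the TGACGTCA motif after its half-site had been counted. The text names all 10 members, up to 2 genes in each direction per list and comparison (adjusted p under 0.05, mean log2 CPM of at least 3), and the 5 genes most like each of *Ins1*, *Pcsk1*, *Pcsk2* and *Cpe*. Of 52962 identifiers 51916 had a symbol in GENCODE M21. Of 19 listed processing enzymes 16 were tested, and of 14 cargo genes 13. Some genes are not reported here.

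Replicate numbers come from the sample descriptions, which do not say what they share. Over genes with a mean log2 CPM of at least 3, deviations of the β and non-β samples that share a number from their group means correlated at 0.292, 0.429 and 0.673 at 4 weeks, and at 0.125, 0.164 and -0.071 at 8 weeks. Over all tested genes the 4-week values were 0.08, 0.133 and 0.306. The main model left the samples unpaired at both ages. Pairing by number entered only the replicate block and the sign flips, both of which also paired the 8-week samples. Replicates differed by more than counting noise in every pair.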

Additional observations from a re-analysis of the deposited data

Results flagged for a closer look

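The age changes of the fractions differed by the interaction test for 1 of the 10 members and 13 companion genes. Of all tested genes, 1.8% were higher and 3.33% lower in the interaction. Counts higher and lower were 2 and 1 of 13 cargo genes, 2 and 1 of 16 processing enzymes and 1 and 1 of 26 folding genes. For 18 granule biogenesis genes they were 0 and 0, and for 12 transcription factor genes 5 and 0. Values are the age difference of the β fraction less that of the non-β fraction on the log2 scale, with adjusted p under 0.05 in limma. *Scg3* was at 0.69, *Vgf* at 0.97, *Ptprn* at 0.61, *Pam* at 1.00 and *Pcsk6*, another convertase, at 0.89. *Dnajc3*, a co-chaperone, was at 0.68, *Nkx6-1* at 1.21 and *Neurod1* at 1.19. *Pax6* was at 0.82, *Pdx1* at 0.82 and *Isl1* at 0.73. *Hspa5* was at -0.70. *Gal*, encoding the neuropeptide galanin, was at -2.29 with means from 1.34 to 31.8 CPM in the 4 groups, and the convertase gene *Pcsk5* at -5.14 with means from 0.163 to 4.25 CPM. These last 5 genes, *Pax6*, *Pdx1*, *Isl1*, *Gal* and *Pcsk5*, were named after their values were seen. The *Ptprn* difference was no longer past the threshold in 4 of the 23 alternative fits, the *Hspa5* difference in 7 and the *Gal* difference in 12, and the *Pcsk5* difference in 8 of the 20 that gave a value. Groups of 3 libraries are too small for the test of single outlying samples.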

How the results depend on the processing

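Of 1190 values of the members under alternative settings, 1109 kept direction and side of the threshold, 12 lost a call, 29 gained one and 40 changed sign. No member called in the main model changed sign. With sample quality weights 9 members were called for age in β-cells, beside 2594 of all genes higher and 2788 lower (1340 and 1459 in the main model). The counts of members called, leaving out each replicate in turn, ranged from 3 to 6 for age in β-cells (3 without β replicate 1 or 2 at 4 weeks). The replicate block gave 2 members for the interaction, *Scg3* and *Ins2*, beside 796 of all genes higher and 1083 lower (280 and 520 in the main model). It also added *Cpe* for age in β-cells, *Scg3* and *Chgb* for age in non-β-cells and *Cpe* between fractions at 8 weeks, and changed no call at 4 weeks. For age the block was the replicate number shared over both ages, and otherwise the same-numbered fractions within an age. Between ages, deviations of same-numbered samples correlated at 0.133, -0.031 and 0.069 in β-cells (mean log2 CPM of at least 3). In non-β-cells these values were 0.284, -0.073 and 0.351.

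For the ratios, pairing by sign flips of same-numbered samples left the fraction differences at -5.19 points (*Ins1* share), 6.33 points (insulin share), 5.28 (*Pcsk1* to *Pcsk2*), 0.73 (*Scg5* to *Pcsk2*) and -5.58 (*Pcsk1n* to *Pcsk1*), each with an adjusted p of 0.0938, the smallest the flips allow. Without the 4-week samples numbered 3 they were -5.02, 5.98, 5.23, 0.66 and -5.61 with an adjusted p of 0.05, again the smallest possible. Leaving out each replicate in turn, the *Scg5* to *Pcsk2* age change in non-β-cells ranged from -0.067 to 0.038, and it was 0.027 without both 4-week samples numbered 3.

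Sign changes touched values near 0. For age in β-cells *Pcsk1n* was at -0.02 (edgeR), -0.027 (DESeq2), -0.0022 (DESeq2 size factors), -0.033 (total counts) and -0.014 (no filter), and ranged from -0.13 to 0.19 leaving out each replicate, with *Scg5* from -0.093 to 0.27. For age in non-β-cells, *Pcsk2*, *Scg5* and *Pcsk1n* were at 0.11, 0.068 and 0.062 with quality weights and 0.043, 0.070 and 0.0052 without both samples numbered 3, and ranged from -0.12 to 0.11, -0.14 to 0.072 and -0.16 to 0.038 leaving out each replicate. Between fractions at 4 weeks *Cpe* was at -0.0038 and *Chgb* at -0.039 with quality weights, *Chgb* at -0.012 without both samples numbered 3, and they ranged from -0.039 to 0.15 and -0.12 to 0.12. Interactions of *Pcsk1* (0.015 without both samples numbered 3), *Scg5* and *Pcsk1n* ranged from -0.12 to 0.040, -0.042 to 0.31 and -0.055 to 0.28. The causes were not tested. The ratios rest on 3 pools a group, and the division of reads between *Ins1* and *Ins2* is kallisto's estimate.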
